A study of Mus musculus with 11 samples.

Results

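The 10 genes described here make, transport and load the peptides shown on major histocompatibility complex (MHC) class I molecules, and were measured as mRNA in the cerebrum of Polg mutator mice and their control littermates. They were taken from the gene count table by symbol and are 10 of the 36666 genes listed. No measured value entered the rule of choice, but earlier results of these data were known when it was made. All 10 were found and all 10 passed the filter on low counts, which left 17983 genes to be tested. They comprise the light chain B2m, the heavy chains H2-K1, H2-D1 and H2-T23, the peptide transporter subunits Tap1 and Tap2, the loading factor Tapbp (tapasin), and the immunoproteasome subunits Psmb8, Psmb9 and Psmb10.

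Class I molecules carry short peptides, cut from proteins inside the cell, to its surface, where CD8 T cells and natural killer cells read them. Proteasomes cut the proteins, the TAP transporter moves the peptides into the endoplasmic reticulum, and tapasin helps to place them in the groove of a heavy chain that is paired with beta-2-microglobulin. Interferons raise the transcription of most of these genes and swap the catalytic subunits of the constitutive proteasome for those of the immunoproteasome. In brain the pathway is known to be active at a low level in healthy tissue, mainly in endothelial cells and microglia, and in some neurons.

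Poly(A)+ RNA of 11 male C57/Bl6 mice aged 1 year was sequenced, 7 of them mutators (D257A/D257A) and 4 of them controls, of which 3 were WT/WT and 1, mouse 237, was WT/D257A. The D257A change removes the proofreading activity of the mitochondrial DNA polymerase in the whole body and from conception, so the mutators carry it in every cell type of the tissue. Each mouse gave 1 library, named below by the number of the mouse. Counts per exon bin, that is, per piece of a gene between the points where its annotated exons begin or end, were used for the 3 WT/WT and the 7 mutator mice.

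Control libraries held 28249345 to 121182250 gene counts and mutator libraries 37821243 to 91219204. Markers of neurons, astrocytes and oligodendrocytes were abundant in every library, with summed levels of 6052 to 6707, 4652 to 5241 and 4858 to 6799 CPM (counts scaled to a common library size), respectively, which fits the label of cerebrum. Polg mRNA stood at 63.5 to 70.4 CPM in controls and 58.5 to 70.3 CPM in mutators (log2 fold change -0.05 ± 0.05 SE, adjusted p = 0.707), and since D257A changes the protein and not the amount of mRNA, this level does not check the genotypes. In mutator mouse 248 the gene counts came to 3.00 per aligned read listed by the authors, against 0.744 to 0.775 in the other 10 mice, so depth was taken from the counts. Genes were tested by edgeR's quasi-likelihood method, p-values were adjusted by Benjamini-Hochberg over the 17983 genes, and CPM were scaled with TMM factors.

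In the NCBIM37 (mm9) annotation 8 of the 10 genes lie in the MHC region of chromosome 17, between Tapbp at chr17:34052844-34066235 and H2-T23 at chr17:36166718-36169800. The other 2 are B2m, at chr2:121973422-121978819, and Psmb10, at chr8:108459628-108462292. Tap1 (chr17:34324498-34334170) and Psmb9 (chr17:34318932-34324697) are transcribed away from each other and their annotated exons overlap by 200 bases at chr17:34324498-34324697, where a library without strand cannot tell their reads apart. Of all stretches of 100 bases within annotated exons, the length of a read, those found nowhere else in the genome made up 96.8% in H2-K1, 95.2% in H2-D1, 91.9% in H2-T23, 99.8% in Tapbp and 100% in the other 6 genes. Some counts of the heavy chain genes are therefore uncertain, since reads can also match related genes, such as H2-Q4 for H2-K1 and H2-Q2 for H2-D1, or, for H2-T23, sequence outside genes.

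Promoter windows of 300 bases, 250 before and 50 after the start, were found in RefSeq (GRCm38.p6) for 9 of the 10 genes, Tap2 being the exception. They were searched on both strands for the interferon-stimulated response element (ISRE, GAAA and GAAA with NN between them), a kappaB site (GGGGA and TCCC with N between them) and a gamma-activated sequence (GAS, TTC and GAA with NNN between them), where N is any base. The 4 windows below are shown because they hold the matches found for the light chain and the heavy chains, whose levels are described next. H2-K1 (chr17:34000298-34000597, minus strand) and H2-D1 (chr17:35262844-35263143, plus strand) each hold a kappaB site, which matches on both strands 1 base apart. B2m (chr2:122147437-122147736, plus strand) holds an ISRE, and H2-T23 (chr17:36032652-36032951, minus strand) holds an ISRE on the opposite strand. Each is given 5′ to 3′ along its gene, with the site in capitals. Only stretches that match the letters above in full were marked. Variants of the 3 motifs were not searched for, so a window with no mark for a motif may still hold a variant of it.
H2-K1: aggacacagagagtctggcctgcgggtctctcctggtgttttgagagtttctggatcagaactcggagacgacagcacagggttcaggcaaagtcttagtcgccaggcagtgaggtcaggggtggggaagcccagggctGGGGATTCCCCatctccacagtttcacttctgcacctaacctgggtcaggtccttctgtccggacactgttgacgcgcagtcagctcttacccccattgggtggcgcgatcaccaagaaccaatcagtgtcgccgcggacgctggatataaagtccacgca
H2-D1: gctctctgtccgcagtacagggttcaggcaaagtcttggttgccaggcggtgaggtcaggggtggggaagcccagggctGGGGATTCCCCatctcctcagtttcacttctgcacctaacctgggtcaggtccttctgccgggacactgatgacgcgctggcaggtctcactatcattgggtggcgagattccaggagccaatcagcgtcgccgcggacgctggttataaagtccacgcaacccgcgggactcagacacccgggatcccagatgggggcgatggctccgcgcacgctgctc
B2m: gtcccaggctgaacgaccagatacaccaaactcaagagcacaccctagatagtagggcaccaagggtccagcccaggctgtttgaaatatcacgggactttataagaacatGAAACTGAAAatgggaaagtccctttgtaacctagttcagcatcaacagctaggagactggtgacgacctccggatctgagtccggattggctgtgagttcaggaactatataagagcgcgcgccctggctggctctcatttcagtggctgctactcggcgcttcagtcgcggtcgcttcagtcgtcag
H2-T23: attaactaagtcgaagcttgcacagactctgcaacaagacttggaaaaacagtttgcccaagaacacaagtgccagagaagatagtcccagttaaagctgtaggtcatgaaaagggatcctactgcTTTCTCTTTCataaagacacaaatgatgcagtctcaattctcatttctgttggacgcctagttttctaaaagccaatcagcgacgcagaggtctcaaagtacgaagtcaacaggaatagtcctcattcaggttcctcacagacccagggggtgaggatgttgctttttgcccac
The windows of H2-K1 and H2-D1 were 90.4% identical over 228 aligned bases. A kappaB site was found in 0.315% of 27025 promoter windows, an ISRE in 3.49% and a GAS in 8.47%. The GAS was found in 1 of the 9 windows, that of Psmb8, and the windows of Tapbp, Tap1, Psmb9 and Psmb10 held none of the 3 motifs as written here. The windows of Tap1 and Psmb9 cover nearly the same bases, on opposite strands.

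Across the 10 genes, 0 had an adjusted p under 0.05, where 1.24% of all genes tested did (0.439% higher in mutators and 0.801% lower). At an unadjusted p under 0.05 there were 4, of which Tap1, H2-K1 and H2-D1 were higher in mutators and Psmb10 was lower, and 15.8% of all genes tested were past that mark (7.18% higher and 8.58% lower). The fitted difference was above 0 for 8 genes and below 0 for 2, with a median log2 fold change of 0.11 against 0.00 for all genes tested. The values of the 2 groups overlapped for all 10 genes, and the groups did not overlap for 2.62% of the genes tested. The 95% intervals of the 10 log2 fold changes ran from -0.44 to 0.59. In RNA of whole tissue, fewer cells of a type and less RNA per cell cannot be told apart.

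**Figure D1:**
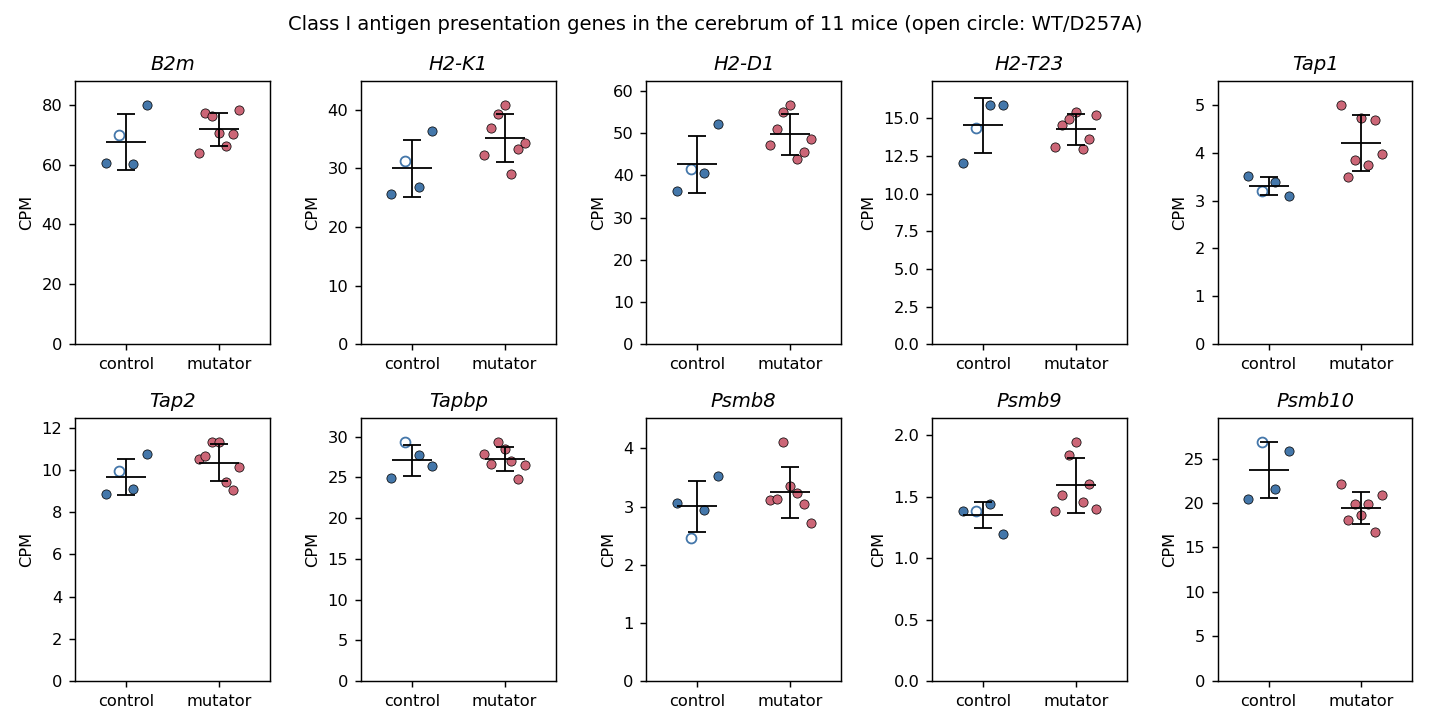
Level of each gene in CPM, on axes that start at 0, with a point per mouse (4 control and 7 mutator), a line at the group mean and bars of 1 SD. The groups overlap in every panel, with 6 of 7 mutators above all controls for Tap1 and 5 of 7 below all controls for Psmb10.

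B2m encodes the light chain that every class I heavy chain needs in order to reach the surface. Its level was 60.6, 69.9, 60.0 and 79.9 CPM in control mice 205, 237, 239 and 246, and 63.9 to 78.2 CPM in mutators with a median of 70.7 CPM. The highest value of all 11 was that of a control, and all 7 mutators lay within the range of the controls. The log2 fold change was 0.09 ± 0.07 (SE, adjusted p = 0.600), with a 95% interval of the difference of -4.56% to 18.7%. It was 0.18 without control mouse 246 (adjusted p = 0.312), 0.04 without mouse 239 (adjusted p = 0.876) and 0.04 without mouse 205 (adjusted p = 0.839).

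The classical heavy chains H2-K1 and H2-D1 present peptides to CD8 T cells. H2-K1 stood at 25.6, 31.2, 26.9 and 36.3 CPM in the controls and at 29.1 to 40.8 CPM in the mutators, with a median of 34.4 CPM. All 7 mutators were above the control median, and 3 of them were above the highest control, mouse 246. The log2 fold change was 0.24 ± 0.10 (SE, unadjusted p = 0.0344, adjusted p = 0.271).

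H2-D1 stood at 36.3, 41.6, 40.7 and 52.2 CPM in the controls and at 44.0 to 56.7 CPM in the mutators, with a median of 48.6 CPM. Here too all 7 mutators were above the control median, and 2 were above mouse 246. Its log2 fold change was 0.23 ± 0.09 (SE, unadjusted p = 0.0205, adjusted p = 0.219). Mouse 246 was the highest control for both genes, and without it the log2 fold change was 0.34 for H2-K1 (adjusted p = 0.139) and 0.33 for H2-D1 (adjusted p = 0.0587). Without control mouse 205, the lowest for both, it was 0.16 and 0.15 (adjusted p = 0.424 and 0.360).

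H2-T23 encodes Qa-1, a non-classical heavy chain that presents leader peptides of other class I molecules to receptors of natural killer cells. It stood at 12.1, 14.3, 15.9 and 15.9 CPM in the controls and at 13.0 to 15.4 CPM in the mutators, with a median of 14.6 CPM. The mutators lay inside the range of the controls, and 2 of 7 were above the control median. The log2 fold change was -0.02 ± 0.08 (SE, adjusted p = 0.922), with a 95% interval of -12.3% to 10.52%, and its sign turned when mouse 239, 246 or 240 was left out (0.03, 0.02 and 0.000683).

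Tap1 and Tap2 together form the transporter that pumps peptides into the endoplasmic reticulum. Tap1 stood at 3.52, 3.20, 3.40 and 3.09 CPM in the controls and at 3.49 to 5.00 CPM in the mutators, with a median of 3.98 CPM. Of the 10 genes it came closest to a separation upwards, since 6 of 7 mutators were above all controls and the 7th, mouse 211, lay 1 rank below control mouse 205. Its log2 fold change was the largest of the 10, 0.35 ± 0.12 (SE, unadjusted p = 0.00791, adjusted p = 0.145), and it rests on 85 to 430 counts per control library and 145 to 436 per mutator library. Over the 20 other settings the log2 fold change ran from 0.30 to 0.39 and the adjusted p from 0.0666 to 0.409.

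Tap2 stood at 8.86, 9.97, 9.10 and 10.8 CPM in the controls and at 9.07 to 11.4 CPM in the mutators, with a median of 10.53 CPM. Of the mutators, 2 were above all controls and 5 were above the control median. The log2 fold change was 0.11 ± 0.08 (SE, adjusted p = 0.573), and it was 0.06 without control mouse 205 and 0.19 with sums of exon bins (adjusted p = 0.769 and 0.448). Tapbp, which holds the empty heavy chain next to the transporter, stood at 24.9, 29.4, 27.7 and 26.5 CPM in the controls and at 24.9 to 29.3 CPM in the mutators, with a median of 27.0 CPM. The ranges of the groups nearly coincided, and the log2 fold change was 0.01 ± 0.06 (SE, adjusted p = 0.961, 95% interval -7.45% to 9.40%). Its sign turned when mouse 205, 246, 217 or 236 was left out, with values of -0.03 to -0.00103.

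Psmb8, Psmb9 and Psmb10 encode the catalytic subunits that take the places of Psmb5, Psmb6 and Psmb7 in the immunoproteasome. Psmb8 stood at 3.07, 2.46, 2.95 and 3.53 CPM in the controls and at 2.72 to 4.12 CPM in the mutators, with a median of 3.12 CPM. Only mutator mouse 217 was above all controls, and the log2 fold change was 0.12 ± 0.13 (SE, adjusted p = 0.696). It was 0.04 without mouse 237, 0.06 without mouse 217, 0.19 without mouse 246 and 0.01 with sums of exon bins (adjusted p = 0.956, 0.871, 0.601 and 0.985). Psmb9 stood at 1.38, 1.38, 1.44 and 1.20 CPM in the controls and at 1.38 to 1.95 CPM in the mutators, with a median of 1.51 CPM. For Psmb9 5 of 7 mutators were above all controls, at a log2 fold change of 0.23 ± 0.15 (SE, adjusted p = 0.499). With 33 to 169 counts per library, a difference of this size could not be detected for Psmb9, whose interval ran from -6.28% to 46.2%.

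For Psmb10 the fitted difference lay below 0. It stood at 20.5, 26.9, 21.5 and 25.8 CPM in the controls and at 16.8 to 22.1 CPM in the mutators, with a median of 19.9 CPM. Of the mutators 5 were below all controls and 0 were above the control median. Its log2 fold change was -0.27 ± 0.08 (SE, unadjusted p = 0.00282) and its adjusted p of 0.0951 was the lowest of the 10 genes. DESeq2, which called 3.94% of its genes, gave Psmb10 an adjusted p of 0.0483, and edgeR without control mouse 205, where 2.27% of genes were called, gave 0.0373 at a log2 fold change of -0.34. The highest value was that of the WT/D257A mouse, and with the 3 WT/WT controls alone the log2 fold change was -0.20 (adjusted p = 0.431).

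**Figure D2:**
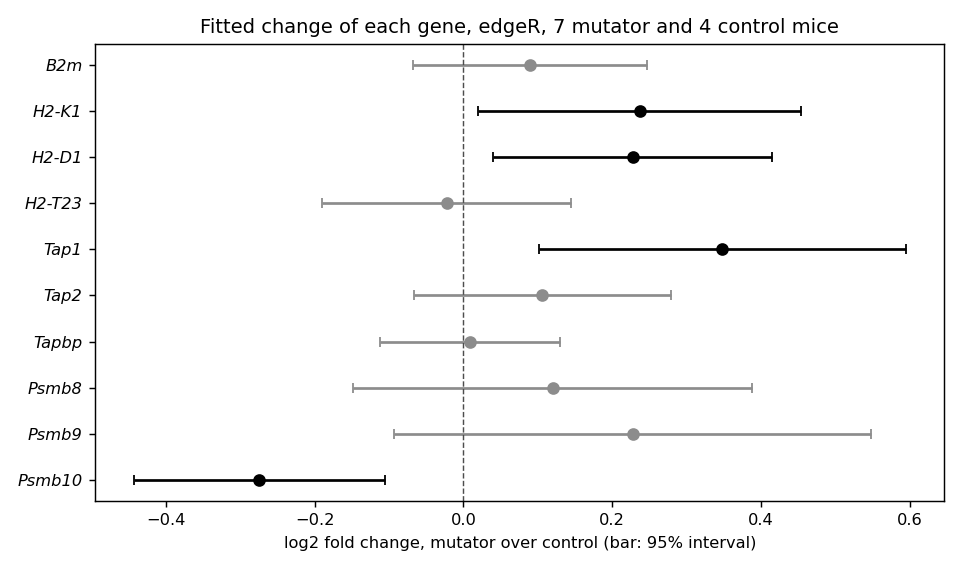
Fitted log2 fold change, mutator over control, with its 95% interval for each of the 10 genes, in black where the unadjusted p was under 0.05. Tap1, H2-K1 and H2-D1 lie above 0, Psmb10 lies below 0, and 0 genes passed the adjusted test.

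Ratios of counts within a library do not depend on how the libraries are scaled, but they can still vary with depth. Here 5 were compared by an exact permutation test over the 330 splits of 11 mice into 4 and 7 (2-sided, smallest p 0.00303). Psmb10 per count of Psmb7 was 0.215, 0.288, 0.231 and 0.246 in control mice 205, 237, 239 and 246 and 0.181 to 0.230 in mutators, with a median of 0.204. Of the mutators 6 lay below all controls and mouse 249 lay above control mouse 205. The ratio was lowest in the deepest library of each group, mouse 205 (0.215) and mouse 248 (0.181). Among mutators it was highest in the shallowest library, mouse 249 (0.230). Among controls it was highest in mouse 237 (0.288), which was not the shallowest. The part of depth in this ratio was not tested. The mean was 0.245 ± 0.0312 (SD, n = 4) in controls and 0.201 ± 0.0170 (SD, n = 7) in mutators, a log2 difference of -0.28 (exact permutation p = 0.00909, adjusted over the 5 ratios p = 0.0455). This call was kept in 2 of 13 alternatives. The adjusted p was 0.125 with the 3 WT/WT controls alone, that is, without mouse 237. It was 0.167 with sums of exon bins, which also lack that mouse. It was between 0.0595 and 0.125 when mouse 207, 211, 217, 236, 239, 240, 246 or 248 was left out, and 0.0417 and 0.0238 without mouse 205 or 249. A comparison of fewer mice has fewer splits and a larger smallest p. The log2 difference ran from -0.34 to -0.20 with a mouse left out.

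For the other 2 immunoproteasome subunits the difference in the ratio lay above 0 and did not pass the test. Psmb8 per count of Psmb5 was 0.0408 to 0.0559 in controls and 0.0484 to 0.0628 in mutators (log2 difference 0.20, exact permutation p = 0.0667, adjusted p = 0.111). Psmb9 per count of Psmb6 was 0.0214 to 0.0271 in controls and 0.0245 to 0.0380 in mutators (log2 difference 0.27, exact permutation p = 0.0545, adjusted p = 0.111). The constitutive subunits stood at 62.1 ± 6.60 (Psmb5), 54.3 ± 2.63 (Psmb6) and 96.7 ± 5.48 CPM (Psmb7) in controls (SD, n = 4) and at 58.5 ± 5.01, 52.6 ± 3.62 and 96.9 ± 6.90 CPM in mutators (SD, n = 7), with adjusted p of 0.605, 0.761 and 0.977. In every mouse the immunoproteasome subunit had fewer counts than the subunit it replaces, by the widest margin for Psmb9.

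**Figure D3:**
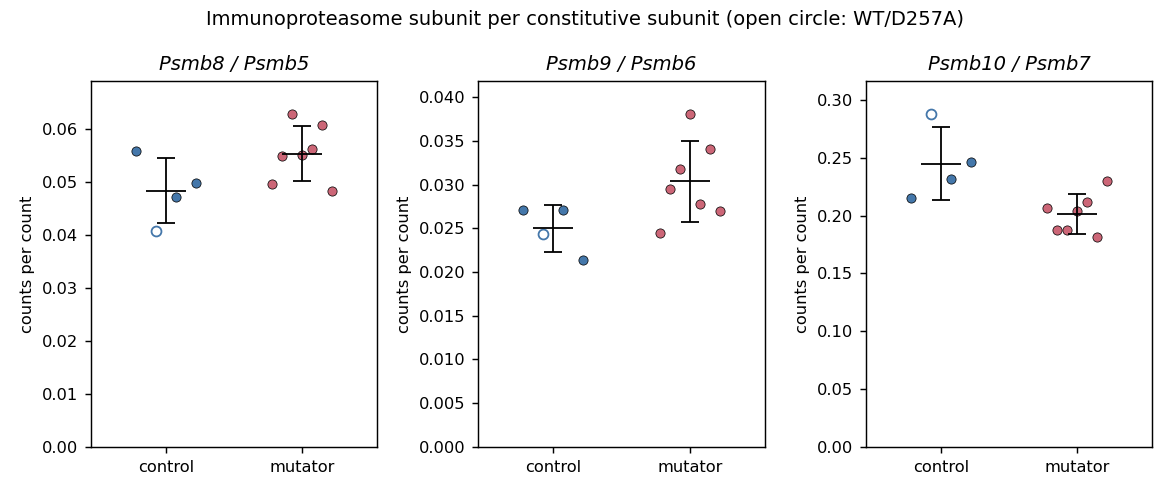
Counts of each immunoproteasome subunit per count of the constitutive subunit it replaces, on axes that start at 0, with a point per mouse, a line at the group mean and bars of 1 SD. For Psmb10 over Psmb7, 6 of 7 mutators lie below all 4 controls, while the means of the other 2 ratios are higher in mutators.

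Between neighbouring genes and between the classical heavy chains the ratios differed little. Tap1 per count of Psmb9 was 2.32 to 2.58 in controls and 2.09 to 3.62 in mutators (log2 difference 0.11, exact permutation p = 0.452, adjusted p = 0.564), so the mutators spread wider on both sides. H2-D1 per count of H2-K1 was 1.33 to 1.51 in controls and 1.37 to 1.51 in mutators (log2 difference -0.01, exact permutation p = 0.891, adjusted p = 0.891), with the range of mutators inside that of controls.

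Per kilobase of the longest coding transcript, B2m had the highest level in controls, 78.6 ± 10.9 CPM per kb (SD, n = 4), followed by H2-D1 at 20.3 ± 3.21, H2-K1 at 18.7 ± 3.03 and Psmb10 at 18.6 ± 2.48 CPM per kb. H2-T23 and Tapbp followed at 9.87 ± 1.23 and 9.37 ± 0.657 CPM per kb, then Tap2 at 2.81 ± 0.251, Psmb8 at 1.84 ± 0.268, Tap1 at 1.12 ± 0.0653 and Psmb9 at 1.01 ± 0.0786 CPM per kb. The control ranges of neighbours in this order overlapped for H2-D1 and H2-K1, H2-K1 and Psmb10, H2-T23 and Tapbp, and Tap1 and Psmb9. In the mutators Psmb10 at 15.3 ± 1.41 CPM per kb lay below H2-K1 at 21.9 ± 2.56 CPM per kb without overlap. Over all annotated exons in place of the longest transcript, B2m stayed the highest and Psmb9 the lowest, while Psmb10 came second at 18.6 CPM per kb, above H2-D1 at 16.5 CPM per kb. The constitutive subunits reached 71.3 ± 7.58 (Psmb5), 68.0 ± 3.30 (Psmb6) and 83.3 ± 4.72 CPM per kb (Psmb7) in controls.

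Among mice of the same group the genes varied together to different degrees. Of the 45 pairs of genes, 34 had a positive correlation of log2 CPM, taken as deviations from the group mean over 11 mice, and 7 had an r of at least 0.7. H2-K1 and H2-D1 had the highest r, 0.95, and Tap2 followed both (0.90 with H2-D1 and 0.88 with H2-K1). Tap1 stood apart, with a median r of -0.18 to the other 9 genes and the lowest r of all pairs with B2m, -0.57. These correlations are descriptions over points that share libraries and depth.

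Depth moved with several of the genes. Within the groups the deviation of log2 CPM was correlated with the log2 total count (n = 11 mice). The r was -0.84 for B2m, -0.77 for H2-T23, -0.74 for H2-D1, -0.70 for H2-K1, -0.68 for Tap2 and -0.59 for Psmb10. It was 0.58 for Tap1, -0.38 for Tapbp, 0.24 for Psmb9 and -0.02 for Psmb8. Among the controls, mouse 246, the shallowest library, was the highest for 6 of the 10 genes, and mouse 205, the deepest, was the lowest for 6. With the log2 total count as a covariate the log2 fold changes of H2-K1 and H2-D1 were 0.25 and 0.25 (adjusted p = 0.0865 and 0.0579) and that of Psmb10 was -0.26 (adjusted p = 0.0687). Among the mutators, mouse 236 was the highest for 5 genes, and mice 240 and 248 were each the lowest for 3.

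**Figure D4:**
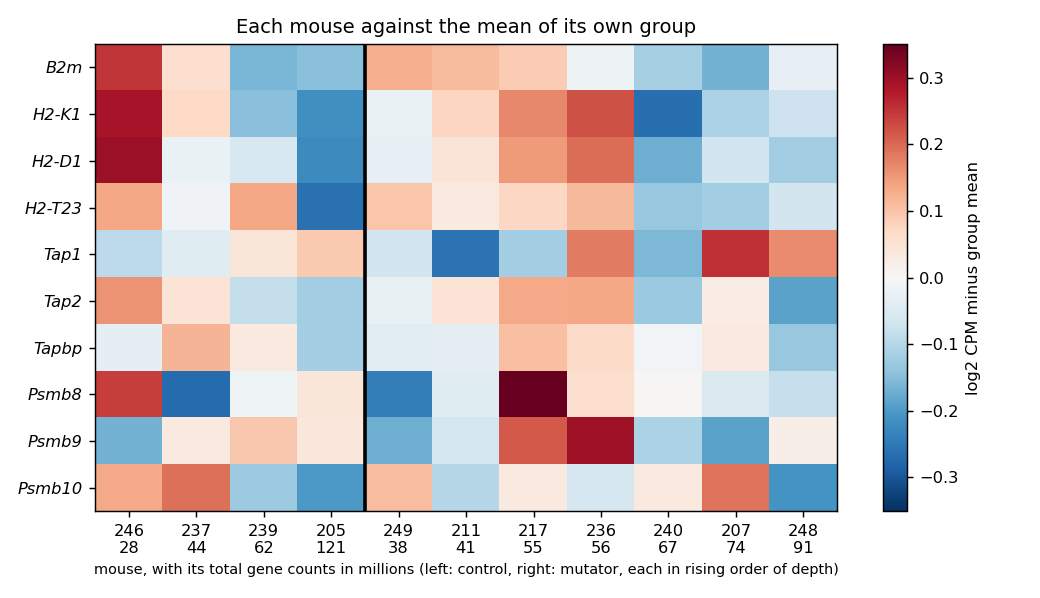
Log2 CPM of each gene in each mouse minus the mean of its own group, in colour, with the mice of each group in rising order of total gene counts (given under each mouse). B2m, H2-K1 and H2-D1 are highest in the shallowest control, mouse 246, and below their mean in the deepest control, mouse 205, while Tap1 is lowest among the controls in mouse 246.

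The 5 genes outside the set whose deviations followed the 10 genes most closely were Gm16295, Spr, Mpst, Rps3 and Pigyl, with a mean r of 0.58, 0.57, 0.56, 0.56 and 0.55 over 11 mice. Leaving out a mouse gave between 0.51 and 0.60 for these 5. The 95th percentile of the mean r over the 17973 genes ranked was 0.39. Spr encodes sepiapterin reductase, Mpst a mercaptopyruvate sulfurtransferase and Rps3 a ribosomal protein. None of the 5 had an adjusted p under 0.05 in the edgeR fit, the lowest being 0.112 for Gm16295.

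At the exon level 84 bins of the 10 genes were tested with diffSpliceDGE between 3 WT/WT and 7 mutator mice. Of these 0 had an adjusted p under 0.05, where 0.0237% of all bins tested did, and 2 had an unadjusted p under 0.05, where 1.90% did. Both were bins of H2-D1. Bin 7, numbered as in the deposited files, took 6.30%, 6.55% and 6.06% of the bin counts of the gene in WT/WT mice 205, 239 and 246 and 7.62% to 8.67% in mutators, with a median of 8.10% (log2 usage 0.43, unadjusted p = 0.0108). Bin 6 took 7.35%, 6.91% and 7.48% in the WT/WT mice and 8.36% to 9.86% in mutators, with a median of 8.83% (log2 usage 0.37, unadjusted p = 0.0225). The groups did not overlap for either bin, nor for bin 11 of Tap2, so for 3 of the 84 bins, while the shares did not overlap for 1.40% of all bins tested.

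The adjacent bin 5 of H2-D1 took 8.85% ± 0.841 (SD, n = 3) in WT/WT mice and 10.17% ± 0.582 (SD, n = 7) in mutators. Put together after their values were seen, bins 5 to 7 held 21.6% to 23.2% of the counts in WT/WT mice and 25.5% to 29.2% in mutators, and the first 4 bins held 55.1% to 56.1% and 46.9% to 52.6%, with no test. The last bin held 21.4% to 23.3% and 21.1% to 23.9%. Each of bins 5 to 7 rests on at least 77 counts in each WT/WT mouse and 145 in each mutator mouse, and the least covered bin, bin 1, on 54 and 60. The bins of H2-D1 in the files could not be placed on the annotation used here, which divides the gene into more pieces. The part of reads from related genes was not tested.

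**Figure D5:**
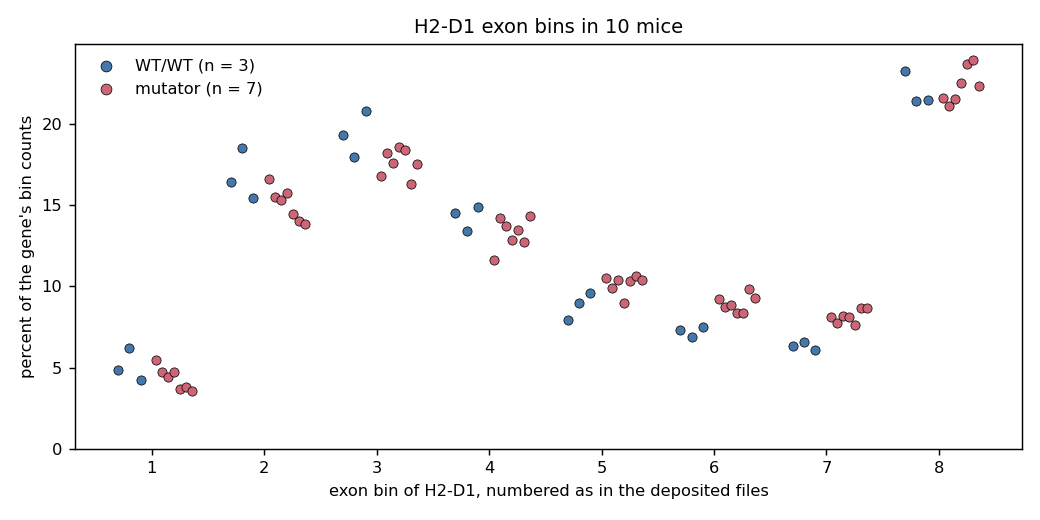
Percent of the bin counts of H2-D1 in each of its 8 exon bins, with a point per mouse (3 WT/WT and 7 mutator) on an axis that starts at 0. The groups are apart in bins 6 and 7, and overlap in the other 6 bins.

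For the other 9 genes the lowest unadjusted p of a bin ran from 0.169 (Psmb10 bin 7) through 0.191 (Tap2 bin 7), 0.210 (Psmb8 bin 2), 0.251 (H2-K1 bin 4), 0.256 (Psmb9 bin 4), 0.285 (H2-T23 bin 7), 0.320 for Tap1 and 0.332 for Tapbp to 0.632 (B2m). No adjusted p was under 0.05 with limma's diffSplice either, which gave the same 2 bins of H2-D1 an unadjusted p of 0.0235 and 0.0417.

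Other genes were described from lists, some of the same pathway and its regulators and receptors, and 1 of interferon-induced genes, chosen for their induction and not for a part in peptide presentation. Of 29 interferon-induced genes tested, 4 rose and 0 fell, with 26 fitted differences above 0 and a median log2 fold change of 0.37. The 4 were Lgals3bp, a secreted glycoprotein (17.0 ± 1.64 to 23.7 ± 2.75 CPM, SD, n = 4 and 7, log2 fold change 0.48, adjusted p = 0.00572), the oligoadenylate synthetase-like gene Oasl2 (3.26 ± 0.194 to 5.50 ± 1.13 CPM, 0.75, adjusted p = 0.00867), the antiviral enzyme Rsad2 (1.21 ± 0.0654 to 1.92 ± 0.214 CPM, 0.66, adjusted p = 0.0297) and the guanylate-binding GTPase Gbp6 (1.92 ± 0.154 to 2.89 ± 0.378 CPM, 0.60, adjusted p = 0.0305). At an unadjusted p under 0.05, 18 of the 29 were higher and 0 lower. Within groups the deviations of Tap1 had an r of -0.62 with the mean of the interferon-induced genes, and those of Psmb8, Psmb9 and Psmb10 had 0.55, 0.42 and -0.42 (n = 11 mice). The r of the rest of the 10 genes lay between -0.02 (Tapbp) and 0.34 (B2m).

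The calls of Rsad2 and Gbp6 were the least firm of the 4. For Rsad2 the adjusted p was 0.114 without mouse 237, 0.0927 without 239, 0.0587 without 246, 0.0602 without 211, 0.0505 without 236 and 0.0677 without 240. For Gbp6 it was 0.0517 without mouse 205, 0.145 without 237, 0.0844 without 239, 0.0620 without 211, 0.0590 without 236 and 0.0637 without 248. Lgals3bp and Oasl2 kept an adjusted p under 0.05 whichever mouse was left out.

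Of 15 other class I and class I-like heavy chains tested, 0 rose and 1 fell, with 12 fitted differences above 0 and a median log2 fold change of 0.05. The gene that fell was Fcgrt, the neonatal Fc receptor, which binds antibodies and not peptides (13.6 ± 1.40 to 10.34 ± 1.35 CPM, log2 fold change -0.38, adjusted p = 0.0472). Its adjusted p was over 0.05 without any of mice 237, 239, 246, 207, 211, 236, 240 and 249, with a highest value of 0.191. The other heavy chains with an unadjusted p under 0.05 were H2-Q6 (log2 fold change 0.47, adjusted p = 0.112), H2-Q8 (1.09, adjusted p = 0.105) and H2-T10 (0.44, adjusted p = 0.249), which share sequence with their neighbours and are uncertain.

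Among 25 regulators of class I transcription 0 rose and 1 fell, and their median was 0.01. Rela, the p65 subunit of NF-kappaB, fell from 25.1 ± 2.14 to 20.7 ± 1.19 CPM (SD, log2 fold change -0.27, adjusted p = 0.0347). Its adjusted p was 0.148 without mouse 237, 0.0645 without 239, 0.156 without 246, 0.0693 without 211, 0.0799 without 240, 0.0717 without 248 and 0.0502 without 249. The interferon genes Ifng and Ifnb1 were too low to be tested.

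In the lists of 11 chaperones and trimming enzymes, 15 constitutive 20S proteasome genes, 4 proteasome activators and 11 class II genes, 0 genes had an adjusted p under 0.05, and 1, 1, 1 and 2 genes had an unadjusted p under 0.05. The 2 class II genes among these were lower in mutators and the others were higher. The medians of the lists were 0.07, 0.01, 0.08 and -0.14. Their most abundant genes, by the mean over all 11 mice, were the lectin chaperones Canx (385 ± 20.9 and 411 ± 17.4 CPM, adjusted p = 0.318) and Calr (263 ± 17.1 and 258 ± 42.6 CPM, adjusted p = 0.942), Psmb7 (given above) with Psma3 (89.8 ± 5.83 and 91.1 ± 5.03 CPM, adjusted p = 0.880), the activators Psme3 (96.3 ± 3.49 and 97.7 ± 3.28 CPM, adjusted p = 0.855) and Psme4 (70.9 ± 2.68 and 76.0 ± 6.16 CPM, adjusted p = 0.421), and the protease Ctss (76.3 ± 11.7 and 79.6 ± 9.47 CPM, adjusted p = 0.814) with H2-DMa (9.08 ± 0.828 and 7.65 ± 0.580 CPM, adjusted p = 0.160).

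Of 15 receptors in the list of those that bind class I or class I-like molecules, only 4 had enough counts for a test, and Tfrc rose. All 4 fitted differences were above 0, with a median log2 fold change of 0.68. At an unadjusted p under 0.05, 3 of the 4 were higher and 0 lower. Tfrc is the transferrin receptor, a partner of the class I-like protein Hfe and the main route of iron uptake, and it stood at 124 to 136 CPM in controls and at 145 to 233 CPM in mutators (log2 fold change 0.53, adjusted p = 0.0174, 0.129 without mouse 237 and 0.0609 without 246). Cd8a, which reads class I on T cells, had a mean of 0.0752 CPM in controls and 0.0258 CPM in mutators and was not tested.

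Markers of vessel cells were also counted. In the 14 endothelial markers 2 rose and 0 fell, with 10 fitted differences above 0 and 4 below, a median log2 fold change of 0.08, and 5 higher and 2 lower at an unadjusted p under 0.05. Their summed level was 305 to 391 CPM in controls and 356 to 463 CPM in mutators, with none at 0. Eng, a co-receptor of vessel walls, rose from 23.03 ± 3.51 to 40.5 ± 3.92 CPM (log2 fold change 0.81, adjusted p = 0.000338). Vwf, the clotting factor of endothelium and platelets, rose from 24.5 ± 9.53 to 57.7 ± 11.8 CPM (1.27, adjusted p = 0.0472), with an adjusted p of 0.0517 to 0.199 without any of mice 205, 237, 239, 207, 211, 236, 240, 248 and 249. Of 8 markers of pericytes and smooth muscle the channel subunit Abcc9 rose (11.1 ± 0.939 to 17.5 ± 1.83 CPM, 0.64, adjusted p = 0.000433). In that list 4 fitted differences were above 0 and 4 below, with a median of -0.02 and with 2 higher and 2 lower at an unadjusted p under 0.05, at a summed level of 177 to 190 CPM in controls and 181 to 214 CPM in mutators. The part of vessel cells in the values of H2-K1, H2-D1 and Tap1 was not tested.

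Of 6 platelet markers 2 rose, Ppbp (0.0160 to 0.182 CPM in controls, 0.223 to 1.23 CPM in mutators, adjusted p = 0.00483) and Tubb1 (0 to 0.0160 and 0.0364 to 0.649 CPM, adjusted p = 0.00483), with 5 fitted differences above 0 and 1 below, at a summed level of 8.29 to 10.9 and 8.34 to 13.5 CPM. Of 5 B cell markers the light chain gene Igk-C fell (0.772 ± 0.249 to 0.217 ± 0.0621 CPM, log2 fold change -1.89, adjusted p = 0.00208), with 2 fitted differences above 0 and 3 below. Their summed level was 29.0 to 38.7 and 17.9 to 26.5 CPM, most of it the heavy chain gene Igh-6 (30.7 ± 4.17 and 21.6 ± 3.61 CPM, adjusted p = 0.0807). Of 15 markers of microglia and macrophages 0 passed the adjusted test and 13 fitted differences were below 0. Their summed level was 440 to 545 and 423 to 516 CPM. At an unadjusted p under 0.05, 4 of the 15 were lower and 0 higher. Over all genes tested 8.58% were lower and 7.18% higher at that mark. The most abundant was the growth factor receptor Csf1r (adjusted p = 0.176). T and NK cell markers summed to 12.1 to 15.3 and 9.23 to 12.03 CPM, most of it Cd4 (11.2 ± 1.44 and 8.76 ± 1.26 CPM, adjusted p = 0.107) with the kinase Lck (1.52 ± 0.102 and 1.46 ± 0.174 CPM, adjusted p = 0.877), and 9 of the 13 were too low to be tested. Red cell genes stood at 57.5 to 198 CPM in controls and 89.7 to 256.9 CPM in mutators, with all 5 fitted differences above 0 and 0 past the adjusted test (Hbb-b1 adjusted p = 0.761, Hba-a1 adjusted p = 0.530).

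In the marker lists of astrocytes, oligodendrocytes, neurons, fibroblasts and choroid plexus, with 8, 8, 8, 6 and 6 genes tested, 0 genes had an adjusted p under 0.05, and 2, 4, 2, 1 and 2 had an unadjusted p under 0.05. The 4 of oligodendrocytes were lower in mutators and the 1 of fibroblasts was higher. In each of the other lists 1 was higher and 1 lower. The median log2 fold changes of the lists were -0.05, -0.21, -0.04, -0.06 and 0.01. The most abundant astrocyte genes were the glutamate transporter Slc1a2 (adjusted p = 0.137) and Aldoc (adjusted p = 0.880), and the most abundant myelin gene was Mbp (adjusted p = 0.434). Those of neurons were Snap25 and Syt1 of synaptic vesicle release (adjusted p = 0.856 and 0.979), those of fibroblasts the matrix genes Dcn and Col1a2 (adjusted p = 0.668 and 0.917), and those of choroid plexus Ttr and Kl (adjusted p = 0.481 and 0.648). No marker of these lists was at 0 in every mouse, and their part in the values of the 10 genes was not tested.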

How the data were processed

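Cerebral poly(A)+ RNA of 11 mice was sequenced as paired reads of 100 bases. The submitters' processing notes name CASAVA 1.7.1, TopHat2 2.0.6, Bowtie2 2.0.2.0, HTSeq 0.5.3p9, DESeq 1.14.0 and the build mm9. The authors deposited whole-number read counts per gene and, for 10 mice, counts per exon bin, none of them normalized. Their tables of DESeq and DEXSeq comparisons, which hold fold changes and p-values, were not used, and 0 per-sample columns of the gene table were left out.

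Here the test of genes was the quasi-likelihood F-test of edgeR 4.0.16 (R 4.3.3), with robust estimates, TMM factors and the low-count filter filterByExpr. It compared 7 mutators with 4 controls, with Benjamini-Hochberg adjustment over 17983 genes and a threshold of 0.05. Exon bins (206930 tested) were tested with diffSpliceDGE, 7 mutators against 3 WT/WT. Correlations used log2 CPM with a prior count of 2. The ratios were compared by exact permutation. DESeq2 1.42.0, limma 3.58.1, other normalizations and filters, WT/WT controls only, log2 total count as a covariate, sums of exon bins and leaving out each mouse were the alternatives. The tests were checked on simulated counts, with the same spread set for every gene. There edgeR called 42 of 43 genes set 2-fold higher and 31 of 52 set 1.5-fold higher. Of genes set lower it called 52 of 54 at 0.5-fold and 38 of 51 at 0.667-fold. Smaller changes were not simulated.

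The 10 genes and the lists were chosen with earlier results of these data known. Named beside the 10 were, from each list, the genes with an adjusted p under 0.05 (at most 4, by lowest p) or otherwise the 2 with the highest mean CPM, as well as Polg, Psmb5, Psmb6 and Psmb7, the 5 genes most alike and the bin with the lowest p of each gene. H2-Q6, H2-Q8, H2-T10, Igh-6, Cd8a, Ifng, Ifnb1, bins 1, 5 and 6 of H2-D1 and bin 11 of Tap2 were named after their values were seen. Some genes that this rule names are not reported here. For the bins, reads that lay in no exon bin were left out. They made up 20.62% to 20.77% in WT/WT mice and 20.78% to 23.4% in mutators, so every mutator was above every WT/WT mouse. The part of this difference in the results from exon bins and their sums was not tested. Of 251 gene symbols in the lists, 245 were found in the table, some under an older name. Library totals of 28249345 to 121182250 set the precision, which is lowest for Psmb9, Psmb8 and Tap1. The mice are separate animals, and the p-values set the group difference against the spread between them. Litter did not enter the tests.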

Additional observations from a re-analysis of the deposited data

How the results depend on the processing

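No paired analysis was possible because the labels give the mice no shared numbers across groups. Of 1163 values recomputed for 61 results, 1030 kept their direction and side of the threshold (for counts, within 1.5 times), 67 lost a call, 4 gained one, 26 moved and 36 changed sign. The number of the 10 genes called was 0, 1 with DESeq2 (Psmb10) and 0 to 1 with a mouse left out, and 0 under the other settings. Of the pathway and marker genes 13 were called, 23 with DESeq2, 7 with WT/WT controls only, 2 with sums of exon bins and 7 to 19 with a mouse left out (7 without mouse 237, 8 without 239 and 8 without 211). Of the 5 ratios 1 was called, 0 with sums of exon bins, 0 with WT/WT controls only and 0 to 1 with a mouse left out. Of the exon bins of the 10 genes 0 were called under all 12 alternatives.

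The log2 fold changes that changed sign were all near 0. With WT/WT controls only and with sums of exon bins they were -0.00831 and -0.00121 for Psmb7, -0.0148 and -0.00638 for Psma3, -0.0117 and -0.000705 for Syt1, and 0.0209 and 0.0108 for Col1a2, and the log2 difference of H2-D1 to H2-K1 was 0.0171 with sums of exon bins. With a mouse left out they ran from -0.111 to 0.0272 for H2-T23, -0.0344 to 0.0507 for Tapbp, -0.0812 to 0.0399 for Calr, -0.0192 to 0.0452 for Psmb7, -0.0148 to 0.0581 for Psma3, -0.00432 to 0.166 for Ctss, -0.0497 to 0.0155 for Aldoc, -0.0678 to 1.32e-05 for Snap25, -0.0117 to 0.0275 for Syt1, -0.134 to 0.0233 for Col1a2, and -0.0366 to 0.0243 for H2-D1 to H2-K1. Calls of named genes that were lost under sums of exon bins include Oasl2 (adjusted p = 0.0513), Ppbp (0.0714), Tubb1 (0.0513) and Tfrc (0.128). Lgals3bp and Abcc9 kept theirs in all 20 alternatives. Eng and Igk-C kept theirs in the 19 and 18 alternatives that gave them a value, and were not assessed in the rest. The number of interferon-induced genes called ranged from 1 to 7.

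The smallest library, with 28249345 counts, held 33 counts of Psmb9, 85 of Tap1 and 97 of Psmb8, which limits the precision of these 3 genes. No alternative moved the median log2 fold change of all genes by more than 0.1. The cause of the changes was not tested, beyond the fewer mice in the fits with WT/WT controls only, with sums of exon bins and with a mouse left out.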
